A study of Homo sapiens with 4 samples.

Results

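The genes described here are the long intergenic noncoding RNA genes and the snoRNA host genes of 2 human colorectal cancer cell lines, SW480 and SW620. They were chosen by name and by a minimum count. A row of the count table was taken if its symbol was LINC followed by digits, SNHG followed by a number, or GAS5, MALAT1 or NEAT1, and if it held at least 10 counts in at least 2 of the 4 libraries. This gave 151 genes of the 14024 genes that passed the same minimum, among 26364 rows in all. They comprised 19 snoRNA host genes (GAS5 and 18 SNHG genes), 130 LINC genes, MALAT1 and NEAT1.

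The minimum removed most of the named genes. Of 898 rows with such a name, 22 were snoRNA host genes and 874 were LINC genes, and 744 LINC genes did not reach it. Of the LINC genes, 439 had no count in any library. The 3 snoRNA host genes left out, SNHG18, SNHG24 and SNHG25, had at most 1 count in any library. Just inside the minimum lay 7 LINC genes whose second highest count was 10, such as LINC01399 with 10, 7, 8 and 14 counts in SW480 control, SW480 knockdown, SW620 control and SW620 knockdown cells. Just outside lay 4 LINC genes whose second highest count was 9, such as LINC00936 with 16, 9, 3 and 9 counts in the same order. A LINC gene that passed only through the line in which it is high had to differ between the lines, so the counts of LINC genes given for the 2 lines describe those that passed and not all LINC genes.

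SW480 came from a primary colon tumor and SW620 from a lymph node metastasis of the same patient. For each line there were 1 SHMT2-knockdown and 1 control library. SHMT2 is the mitochondrial serine hydroxymethyltransferase, which makes glycine and one-carbon units from serine. In the knockdown system of the study, doxycycline switches on an shRNA against SHMT2 from a lentiviral vector, and its text calls the controls of the expression profile control shRNA cells, where the labels give just control. Whether the controls received doxycycline, and which SHMT2 hairpin was sequenced, was not given in the sources used here. The labels describe Illumina TruSeq libraries made from total RNA, whereas the text of the study speaks of RNA-seq and of a microarray from Agilent. The deposited values are whole numbers with unequal totals and were read as sequencing counts.

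The libraries held 5530129 to 13774288 counts, so the deepest was SW620 knockdown and the shallowest SW620 control. SHMT2 itself had 2661 counts in SW480 control cells and 205 in SW480 knockdown cells, and 3751 and 640 in the SW620 pair, with a log2 change of -3.54. Of the 9 epithelial markers 7 passed the minimum, EPCAM, KRT8 and CDH1 among them. Summed over these 7, a library held between 5399 and 10494 CPM (the count divided by the TMM-scaled library total). VIL1 had 2 and 1 counts in the SW480 pair against 2029 and 5105 in the SW620 pair, and CDX1 was at 0 throughout. Of the immune markers none passed, the endothelial markers summed to 0.520 to 2.26 CPM, and the fibroblast genes COL1A2 and DCN had at most 1 count in any library. The fibroblast list as a whole summed to 19.6 to 29.7 CPM, from COL1A1 in SW480 and mostly from LUM in SW620. In knockdown cells KRT8 fell by 0.34 on the log2 scale (edgeR adjusted p = 0.00406), and of the 7 epithelial markers 2 were called lower and 1 higher. The part of these markers in the results was not tested.

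snoRNA host genes carry small nucleolar RNAs in their introns. After splicing, the introns are trimmed to snoRNAs, which guide ribose methylation and pseudouridylation of ribosomal RNA, while the spliced exons of many hosts are degraded by nonsense-mediated decay once ribosomes reach them. Several hosts, GAS5 the best known, belong to the TOP class of genes, whose transcripts begin with a C followed by a run of pyrimidines and whose translation depends on growth signals. GAS5 is named for its accumulation in growth-arrested cells. MALAT1 is a long RNA of nuclear speckles, and NEAT1 is the scaffold of paraspeckles. LINC genes lie between protein-coding genes by name, and their transcripts are often rare and restricted to a few cell types.

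The starts of the hosts show which of them fit the TOP pattern in the reference. The sequences are from RefSeq on GRCh38.p14, which need not be the authors' annotation, and each runs from 10 bases before the annotated start to the 20 bases that begin with it, 5′ to 3′ on the strand of the gene. Capitals mark an unbroken run of C and T of at least 5 bases that begins with a C at the annotated start. These starts were chosen because they are the hosts with such a run, followed by GAS5 and SNHG1 as well known hosts without one at this position and by LINC00704, the 1 gene called with the knockdown.
SNHG4: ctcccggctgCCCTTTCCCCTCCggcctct
SNHG5: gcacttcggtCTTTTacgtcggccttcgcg
SNHG12: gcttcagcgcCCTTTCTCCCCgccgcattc
SNHG19: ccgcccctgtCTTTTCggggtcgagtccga
GAS5: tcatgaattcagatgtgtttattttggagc
SNHG1: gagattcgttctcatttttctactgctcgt
LINC00704: aatggtgccaatgatgttggaggatacctg
They lie at chr5:139274091-139274120 on the plus strand (SNHG4), and on the minus strand at chr6:85678714-85678743 (SNHG5), chr1:28581854-28581883 (SNHG12), chr16:2155339-2155368 (SNHG19), chr1:173869026-173869055 (GAS5), chr11:62855866-62855895 (SNHG1) and chr10:4678051-4678080 (LINC00704). A run at the annotated start was present in 4 of 16 host windows (25%), in 7 of 107 LINC windows (6.54%) and in 1429 of 35116 windows of all genes (4.07%). The window could be read for 16 of 19 hosts and 96 of 130 LINC genes. A run at the annotated base depends on the exact start chosen by the annotation, so its absence says only that these letters are not at this position. The GC content of the windows, read from 250 bases before to 50 bases after each start, had a median of 60.8% in hosts, 59.3% in LINC genes and 58.7% in all genes. For the LINC genes with no count in 1 of the lines it was 50.3% (18 windows of 15 genes).

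The names were checked against the current reference. All 151 symbols matched a RefSeq gene, and 34 LINC genes have since been renamed. Among them 8 are now protein-coding genes, LINC00094 (BRD3OS), LINC00116 (MTLN), LINC00176, LINC00341, LINC00493 (SMIM26), LINC00672, LINC00998 (SMIM30) and LINC01420 (NBDY), which encode mostly small proteins. One more, LINC01296, is a transcribed pseudogene. LINC00888 is now SNHG33, a snoRNA host gene, LINC00657 is NORAD, LINC00152 is CYTOR and LINC00704 is MANCR. A protein-coding gene overlapped 9 of the 19 hosts and 13 of the 130 LINC genes. Since the use of strand in counting was not given in the sources used here, reads of such a gene and of its partner cannot be told apart.

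The members together took 0.396% to 0.490% of the counts of a library. MALAT1 alone took 0.138% to 0.255%, the 19 hosts 0.0948% to 0.116%, and the 130 LINC genes 0.104% to 0.146%. Median expression was 27.0 CPM in hosts, 3.58 CPM in LINC genes and 28.7 CPM in all genes tested. Hosts were thus near the middle of all genes, and LINC genes were low.

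Levels of different genes were compared per length, as mean CPM per kilobase of the median annotated transcript, for the 142 members with an annotated length. The 9 without one were LINC genes, LINC00673 and LINC01000 among them. On this scale GAS5 was first with 263, followed by MALAT1 with 228, SNHG6 with 214 and SNHG5 with 203. That order is of means over 2 unlike lines, and GAS5 led in no single library. In SW480 control and knockdown cells MALAT1 was above it (270 and 285 against 192 and 231). In SW620 control and knockdown cells SNHG5 was above it (350 and 357 against 289 and 341). GAS5 was above SNHG6 in mean level, but SNHG6 was above GAS5 in SW480 control cells (231 against 192 CPM per kilobase) and below it in SW620 control cells (206 against 289). In SW480 knockdown cells they stood at 231 (GAS5) and 230 (SNHG6), and in SW620 knockdown cells GAS5 was again the higher, with 341 against 188. LINC00674 had 164, a value that depended on the transcript used and ranged from 101 with the longest to 430 with the shortest, so its place in this order is not settled. LINC00657 (NORAD), an RNA that binds PUMILIO proteins, followed MALAT1 among the long transcripts with 43.8. NEAT1 had 5.80 with its longest transcript and 37.4 with its shortest.

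The first question was whether these RNAs changed in SHMT2-knockdown cells compared with control cells. One of the 151 genes, LINC00704, was called, as a rise. By edgeR's quasi-likelihood test, with p-values adjusted over 14024 genes by Benjamini and Hochberg, 0.492% of all genes were called higher and 1.17% lower in knockdown cells (1.66% in all), against 1 (0.662%) and 0 of the members. None of the 19 hosts was called, and neither MALAT1 nor NEAT1 was. At an unadjusted p of 0.05 or less, 7 members (4.64%) were higher and 0 were lower, where 4.15% and 4.91% of all genes were. The share of members that were higher was therefore near that of all genes. The 7 were LINC00704, LINC00963, LINC01559, LINC00998, LINC00094, GAS5 and MALAT1. With the DESeq2 Wald test no member was called, and none had an unadjusted p of 0.05 or less. That test gave no adjusted p for 139 of the 151 members, so most of them could not be called. By direction alone, 43 members (28.5%) were higher in knockdown in both lines and 25 (16.6%) were lower in both, against 27% and 24.7% of all genes. The median log2 change was -0.0145 in hosts and 0.11 in LINC genes, where that of all genes was 0.0075. By line, the LINC median was 0.17 in SW480 and -0.0087 in SW620. In these bulk libraries, fewer cells of a type and less RNA per cell cannot be told apart.

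The model held the cell line and the treatment and left 1 residual degree of freedom, so its p-values rest on a spread shared across genes. Within a single line there was 1 library of each kind and no test. Intervals on the values of a single line cover counting error only.

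LINC00704 (MANCR), a long noncoding RNA, had 13 counts in SW620 control cells and 140 in SW620 knockdown cells, or 2.38 and 10.4 CPM. In SW480 it had 1 count in control cells and 2 in knockdown cells. The rise was thus seen in SW620, where the ratio of knockdown to control was 4.37 (95% counting interval 2.47 to 8.41). The SW480 ratio of 2.90 had an interval of 0.151 to 171, which gives it no direction. Over both lines the log2 change was 2.07 (SE 0.50, edgeR adjusted p = 0.00511). The call was lost when the cell line term was left out of the model (adjusted p = 1.00), and no fit with at least 50 counts in 2 libraries could include the gene. The study listed LINC00704 among its raised genes from these libraries, so the call is not independent of that list. The nearest protein-coding gene in RefSeq, AKR1E2, had 22 and 11 counts in the SW480 pair and 12 and 34 in the SW620 pair.

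LINC00963 had 122 counts in control and 121 in knockdown SW480 cells, and 118 and 461 in SW620 cells. Scaled to library size these were 12.7 and 18.3 CPM in SW480 and 21.6 and 34.3 CPM in SW620. Knockdown was higher than control within each line, while SW480 knockdown stayed below SW620 control. The log2 change was 0.60 (SE 0.18), which did not pass the adjusted threshold in edgeR (adjusted p = 0.0643). This gene too was on the study's own list of raised genes. LINC01559 had 5 and 2 counts in SW480 cells and 199 and 813 in SW620 cells, or 36.5 and 60.4 CPM in SW620. The ratio of knockdown to control was 1.66 in SW620 (interval 1.42 to 1.94). In SW480 it was 0.579 with an interval of 0.0552 to 3.54, which gives no direction. The edgeR adjusted p was 0.0942.

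The remaining LINC genes below 0.05 before adjustment now carry protein-coding names. LINC00998 (SMIM30), which encodes a small membrane protein, had 39.4 and 51.4 CPM in SW480 control and knockdown cells and 37.6 and 46.6 CPM in the SW620 pair. LINC00094 (BRD3OS) had 37.7 and 48.9 CPM in SW480 and 41.1 and 46.8 CPM in SW620. Both knockdown libraries lay above both control libraries for each of these genes. The log2 changes were 0.35 and 0.28, with edgeR adjusted p of 0.288 and 0.531.

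**Figure D1:**
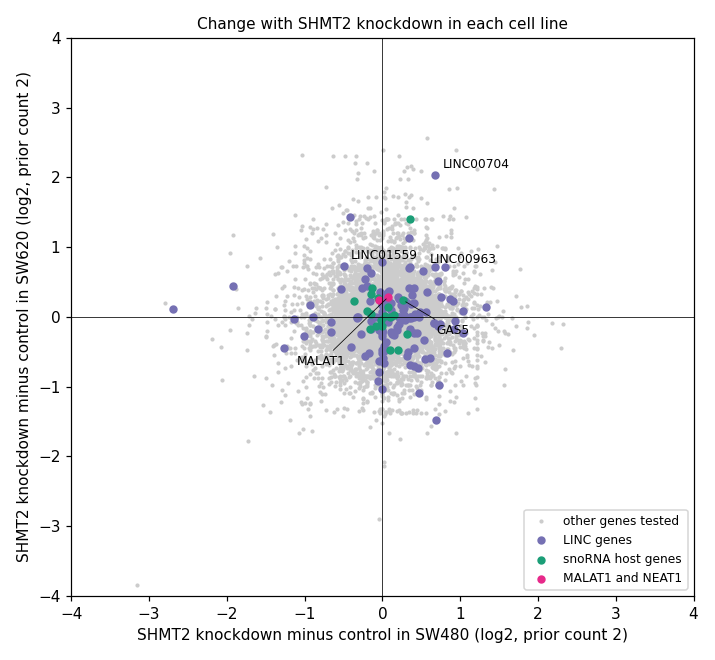
Change with SHMT2 knockdown in SW480 (horizontal axis, log2 with a prior count of 2) against that in SW620 (vertical axis, same scale), 1 point per gene, for all genes tested (grey), LINC genes (violet), snoRNA host genes (green), and MALAT1 and NEAT1 (pink). LINC00704 lies at 0.67 and 2.03, LINC01559 at -0.50 and 0.72, and most members within the cloud of other genes.

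GAS5 had 1166 counts in SW480 control cells and 968 in SW480 knockdown cells, and 995 and 2895 counts in the SW620 pair. The levels were 121 and 146 CPM in SW480 and 182 and 215 CPM in SW620. Knockdown was above control in each line, by a ratio of 1.20 in SW480 (counting interval 1.10 to 1.31) and 1.18 in SW620 (1.10 to 1.27). The log2 change was 0.25 (SE 0.12), and the edgeR adjusted p was 0.445. GAS5 was therefore not called as changed. It was the 1 host with an unadjusted p of 0.05 or less.

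MALAT1 had 2350 and 2479 CPM in SW480 control and knockdown cells and 1395 and 1703 CPM in the SW620 pair. NEAT1 had 183 and 178 CPM in SW480 and 76.1 and 90.3 CPM in SW620. The 2 lines did not overlap for either RNA, while control and knockdown levels of a line lay closer together than the lines. The log2 changes with knockdown were 0.18 for MALAT1 and 0.095 for NEAT1, with edgeR adjusted p of 0.472 and 0.957. FRMD8, the nearest protein-coding gene to NEAT1, fell by 0.51 on the log2 scale (edgeR adjusted p = 0.0140).

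The other hosts had log2 changes with knockdown between -0.23 for SNHG19 and 0.70 for SNHG9. SNHG9 had 12 and 11 counts in SW480 and 0 and 5 in SW620, so its value rests on few counts. Of the hosts above 100 CPM in every library, SNHG1, which carries box C/D snoRNAs, had 129 and 112 CPM in SW480 control and knockdown cells and 103 and 110 CPM in SW620. SNHG6 had 149 and 148 CPM in SW480 and 132 and 121 CPM in SW620. Their knockdown and control libraries lay close together, with log2 changes of -0.060 and -0.066. SNHG16 had 270 and 246 CPM in SW480 and 184 and 245 CPM in SW620. SNHG7 had 56.2 and 43.4 CPM in SW480 and 71.9 and 84.2 CPM in SW620. In both of these hosts the SW480 value was lower, and the SW620 value higher, in knockdown than in control cells.

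SNHG3 overlaps RCC1, which codes for the exchange factor of the GTPase Ran. RCC1 had 226 and 163 CPM in SW480 control and knockdown cells and 247 and 166 CPM in SW620. Both knockdown libraries were below both controls, and RCC1 fell by 0.52 on the log2 scale (edgeR adjusted p = 8.21e-04). It was also on the study's own list. SNHG3 had 36.7 and 38.6 CPM in SW480 and 60.9 and 67.0 CPM in SW620, with a log2 change of 0.11 (edgeR adjusted p = 0.957). RCC1 was thus lower and its overlapping host not called.

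The genes that act on these RNAs were read beside them. Of 19 genes of snoRNA-protein particles and their assembly, such as FBL (the methyltransferase fibrillarin) and NOP56, 0 were called with knockdown by edgeR, while before adjustment 1 (TCOF1) was lower at the 0.05 limit. Their median log2 change was -0.056. Of 14 nonsense-mediated decay genes 0 were called and 1 (MAGOH) was lower before adjustment, with a median of -0.052. Of 18 speckle and paraspeckle proteins 0 were called and 2 (RBM14 and SRSF2) were lower before adjustment, with a median of -0.10. Of 18 protein-coding snoRNA host genes RCC1 was the 1 called, and the median was 0.011. Of all genes tested 1.66% were called and 4.91% were lower before adjustment, and their median was 0.0075. At those shares a list this short holds few or no calls, so these counts do not show that the listed genes were unchanged.

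The second question was how the same RNAs differed between SW620 and SW480. Many did, as most genes did. In the same edgeR fit, 63.6% of all genes were called between the lines (32.3% higher in SW620 and 31.3% higher in SW480). Of the 151 members 101 were called (66.9%), of which 62 (41.1%) were higher in SW620 and 39 (25.8%) in SW480. The share called was near the background. With the DESeq2 Wald test 50 members were called in place of 101, with hosts down from 15 to 5 and LINC genes from 84 to 43. With at least 50 counts in 2 libraries, 44 of the 72 members left were called. The shares of all genes called in these settings were not counted, so the drops are not set against a background. Among the 101 the split was 11 hosts higher in SW620 against 4 in SW480, 51 LINC genes against 33, and 0 against 2 for MALAT1 and NEAT1. The median difference (SW620 minus SW480) was 0.57 in hosts, 0.17 in LINC genes and 0.0102 in all genes, on the log2 scale. The LINC median was -0.020 without the control pair and 0.40 without the knockdown pair, so it gives no direction. Each line was represented by 1 knockdown and 1 control library, so this comparison carries both conditions.

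Among hosts SNHG5 differed most. It had 21.6 and 23.98 CPM in the SW480 libraries and 151 and 154 CPM in the SW620 libraries. The 2 lines lay far apart and the 2 conditions of each line close together. The difference was 2.74 on the log2 scale (SE 0.14, edgeR adjusted p = 4.50e-82). SNHG5, with the run shown in capitals above, hosts box C/D snoRNAs.

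Other hosts higher in SW620 were GAS5 (0.57, SE 0.12), SNHG3 (0.76, SE 0.14), SNHG7 (0.66, SE 0.13), SNHG15 (0.86, SE 0.15) and SNHG17 (0.73, SE 0.17). Those of lower level were SNHG4, SNHG10, SNHG19, SNHG20 and SNHG21, with log2 differences from 0.48 to 1.06. SNHG15 showed the separation plainly, with 24.7 and 22.3 CPM in SW480 and 42.2 and 43.2 CPM in SW620. In the opposite direction, SNHG12 had 33.2 and 32.9 CPM in SW480 and 21.3 and 20.7 CPM in SW620. SNHG22 had 11.7 and 10.4 CPM in SW480 and 6.05 and 5.35 CPM in SW620. SNHG12 and SNHG22 were higher in SW480, by -0.66 and -0.95 as SW620 minus SW480. SNHG16 was called lower in SW620 (-0.28, edgeR adjusted p = 0.0209), although its SW620 knockdown level of 245 CPM lay beside its SW480 knockdown level of 246 CPM. SNHG9, at 23 counts over SW480 and 5 over SW620, was higher in SW480 by a ratio of 5.36 (counting interval 1.99 to 18.0). SNHG1, SNHG6, SNHG8 and SNHG11 were not called, with edgeR adjusted p of 0.199, 0.0772, 0.285 and 0.106. Hosts with the capitalised run were on both sides, with SNHG4, SNHG5 and SNHG19 higher in SW620 and SNHG12 higher in SW480.

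**Figure D2:**
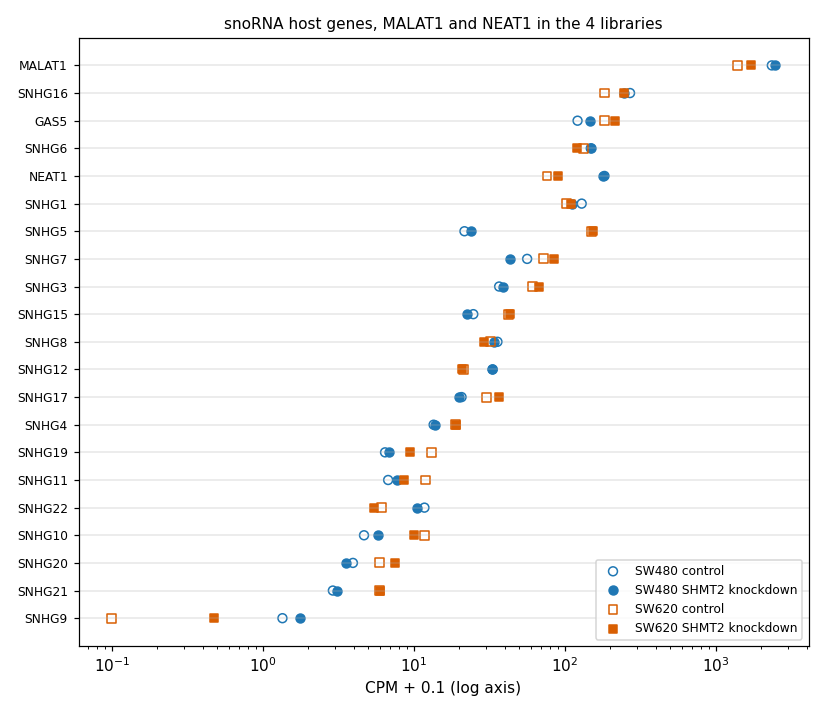
Level of each snoRNA host gene, MALAT1 and NEAT1 in the 4 libraries, as CPM plus 0.1 on a log axis, ordered by mean level. Circles are SW480 and squares SW620, open for control and filled for SHMT2 knockdown. For SNHG5 the squares lie near 150 CPM and the circles near 20 CPM, and for most hosts the 2 libraries of a line lie closer together than the lines do.

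MALAT1 and NEAT1 were both higher in SW480. The differences were -0.65 (SE 0.087) for MALAT1 and -1.12 (SE 0.12) for NEAT1 on the log2 scale, with edgeR adjusted p of 4.61e-13 and 2.98e-19. Of the 19 hosts, 11 (57.9%) were called on the opposite side, higher in SW620, where 32.3% of all genes were. The same side as these nuclear RNAs held 4 called hosts (21.1%: SNHG9, SNHG12, SNHG16 and SNHG22), where 31.3% of all genes were higher in SW480. The rest of the hosts were not called, and the shares were not tested.

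The mature snoRNAs were measured poorly in these libraries. Of 41 snoRNAs listed in introns of members 37 were in the table and 9 passed the minimum. With knockdown, 0 of the 9 were called by edgeR, where 1.66% of all genes were. Before adjustment 0 had a p of 0.05 or less, where 4.15% of all genes were higher and 4.91% lower. Between the lines 2 of the 9 were called, both higher in SW480, where 63.6% of all genes were called. SNORD25, from an intron of SNHG1, had 56 and 43 counts in SW480 and 9 and 19 in SW620 (log2 -2.04, edgeR adjusted p = 1.94e-06). SNORA61, from an intron of SNHG12, had 38 and 21 counts in SW480 and 8 and 25 in SW620 (log2 -1.04, edgeR adjusted p = 0.0340). The hosts of these 2 snoRNAs lay on the same side, SNHG1 at -0.18 (not called) and SNHG12 at -0.66 (called). The median over the 9 was -0.54 and that of all hosts was 0.57, but these medians do not pair each snoRNA with its own host. Whether the counted reads come from the trimmed snoRNA or from unspliced host RNA cannot be told apart in these counts.

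The size of the differences between the lines was then counted. At least 2-fold in both conditions, in the same direction, was reached by 67 of 130 LINC genes (51.5%) against 27.4% of all genes. At least 8-fold was reached by 27 (20.8%) against 8.93%. This difference was not seen among genes of like level. Among genes below 10 CPM on average, 54 of 104 LINC genes (51.9%) and 49.6% of all genes differed at least 2-fold, and 18 (17.3%) and 19.4% at least 8-fold. Of the 19 hosts, 2 (10.5%, SNHG5 and SNHG9) differed at least 2-fold and 0 at least 8-fold. No set test was made, and hosts were not compared with genes of like level.

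**Figure D3:**
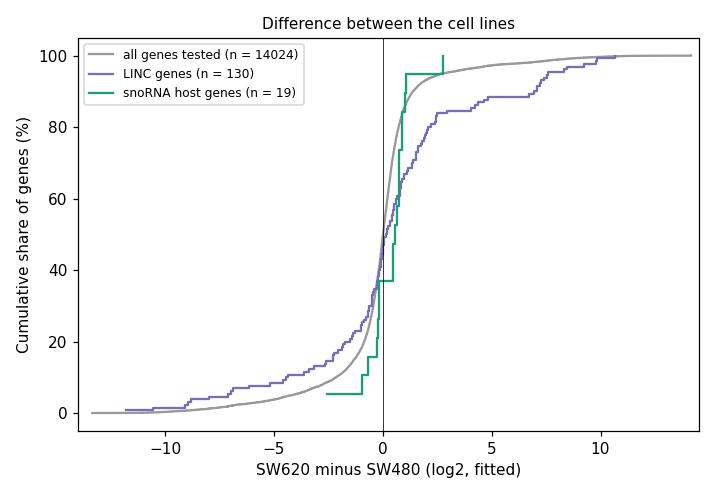
Cumulative share of genes (percent, vertical axis) by fitted log2 difference between the lines, SW620 minus SW480 (horizontal axis), for all genes tested (grey), LINC genes (violet) and snoRNA host genes (green). The LINC curve is the flattest, and the host curve lies to the right of 0 for most of its height. Fitted values of genes at 0 in 1 line depend on the prior count.

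Several LINC genes that differed were measured in both lines. LINC00673 had 21.8 and 25.3 CPM in SW480 and 118 and 141 CPM in SW620, a log2 difference of 2.46 (SE 0.14). LINC00460 had 3.85 and 3.32 CPM in SW480 and 59.6 and 81.3 CPM in SW620, a difference of 4.24 (SE 0.19). LINC00657 (NORAD) had 170 and 217 CPM in SW480 and 290 and 258 CPM in SW620, a difference of 0.51 (SE 0.11). These 3 RNAs were higher in both SW620 libraries than in either SW480 library. LINC01420 (NBDY), which encodes a small protein of the mRNA decapping complex, had 48.0 and 47.8 CPM in SW480 and 19.8 and 17.3 CPM in SW620. LINC01234 had 49.1 and 51.4 CPM in SW480 and 2.20 and 2.08 CPM in SW620. Both were higher in SW480, by -1.38 and -4.57 as SW620 minus SW480. LINC01234 and LINC00674, which had 54.3 and 54.3 CPM in SW480 and 86.0 and 80.6 CPM in SW620, had log2 changes with knockdown of 0.045 and -0.049. LINC01000 was not called (log2 difference 0.038, edgeR adjusted p = 0.818), with 56.2 and 65.2 CPM in SW480 and 64.7 and 60.1 CPM in SW620.

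Some LINC genes had no count at all in 1 line. In both SW480 libraries 12 LINC genes (9.23%) were at 0, against 1.32% of all genes, and in both SW620 libraries 9 (6.92%) were, against 1.33%. These are shares of the genes that passed the minimum, and a gene at 0 in 1 line could pass only through the other. LINC genes were lower in level than all genes, and the shares at 0 among genes of like level were not counted. A count of 0 in both libraries of a line allows a level of up to 0.185 CPM in SW480 and 0.159 CPM in SW620, taking 3 counts over the line as the limit. Each fold given below as a minimum is the level in the other line, with its count taken as exact, divided by this limit.

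LINC00261 had the most counts of those at 0 in SW480. It had 0 and 0 counts in SW480 and 124 and 322 in SW620, or 22.7 and 23.9 CPM, which makes it at least 128-fold higher in SW620. LINC01124 had 71 and 174 counts in SW620 (at least 70.1-fold), LINC01224 had 78 and 134 (at least 60.7-fold) and LINC01605 had 44 and 124 (at least 48.1-fold). With knockdown their SW620 levels moved by log2 values between -0.51 (LINC01224) and 0.19 (LINC01605). The other 8, from LINC01239 with 102 counts in SW620 to LINC01116 with 31, were at least 29.2-fold to 8.87-fold higher there. LINC00667 was close to this group, with 1 and 1 counts in SW480 and 147 and 326 in SW620, a ratio of 203 (counting interval 55.9 to 1682).

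LINC01468, now LNCAROD, led the genes at 0 in SW620. It had 569 and 314 counts in SW480, or 59.2 and 47.4 CPM, and none in SW620, which makes it at least 343-fold higher in SW480. LINC00839 had 184 and 148 counts in SW480 (at least 129-fold), LINC00173 had 67 and 54 (at least 47.0-fold) and LINC00861 had 55 and 49 (at least 40.4-fold). With knockdown their SW480 levels moved by log2 values between -0.32 (LINC01468) and 0.36 (LINC00861). The other 5, from LINC01515 with 96 counts in SW480 to LINC00640 with 25, were at least 37.3-fold to 9.70-fold higher there.

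**Figure D4:**
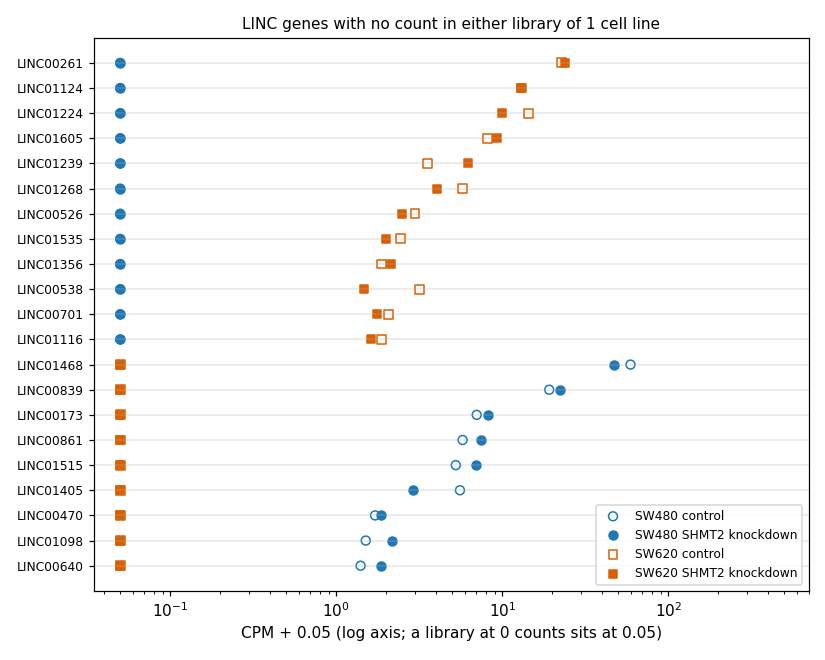
LINC genes with no count in either library of 1 cell line, as CPM plus 0.05 on a log axis, so that a library at 0 sits at 0.05. Circles are SW480 and squares SW620, open for control and filled for SHMT2 knockdown. The upper 12 genes were at 0 in SW480 and the lower 9 at 0 in SW620.

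The protein-coding genes nearest to the LINC genes were then read, by RefSeq order. Of the 84 LINC genes that differed between the lines, 59 had a nearest protein-coding gene that was tested. It differed in the same direction for 30, in the opposite direction for 13 and was not called for 16. These 59 LINC genes had 56 distinct neighbors, so a few neighbors were counted more than once. For the 37 LINC genes with a fitted log2 difference of 3 or more in size, 26 neighbors were tested, and 15 went the same way, 6 the opposite way and 5 were not called. These are counts beside 63.6% of all genes called between the lines, and no test of them was made.

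Some neighbors differed about as plainly as the LINC gene. FOXA2, a forkhead transcription factor of endoderm and the neighbor of LINC00261, had 10 and 7 counts in SW480 and 381 and 830 in SW620 (log2 5.97). SP5, a transcription factor gene that responds to WNT signals and the neighbor of LINC01124, had 5 and 12 counts in SW480 and 648 and 1432 in SW620 (log2 6.72). PROX1, a homeobox gene and the neighbor of LINC00538, had 1 and 2 counts in SW480 and 2038 and 4130 in SW620. All 3 thus had few counts in SW480, where their LINC genes had none. ZNF703, the neighbor of LINC01605, had 63 and 43 counts against 604 and 1776 (log2 4.20). DKK1, a secreted WNT inhibitor and the neighbor of LINC01468, had 6010 and 2971 counts in SW480 and 16 and 79 in SW620 (log2 -6.72). TRIB1, a pseudokinase gene and the neighbor of LINC00861, had 4561 and 3452 counts in SW480 and 163 and 751 in SW620 (log2 -3.56). DKK1 and TRIB1 followed the direction of their LINC genes to SW480.

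Other neighbors went the opposite way. EMP1, a membrane protein gene next to LINC01559, had 673 and 175 counts in SW480 and 38 and 217 in SW620 (log2 -1.80), while LINC01559 was higher in SW620 with a ratio of 124 (interval 60.03 to 310). SLC39A11, a zinc transporter gene nearest to both LINC00511 and LINC00673, had 326 and 284 counts in SW480 and 59 and 229 in SW620 (log2 -1.46), while both LINC genes were higher in SW620. ZNF33B was higher in SW620 (log2 1.28), while LINC00839 had no count there. Each of the neighbor differences named had an edgeR adjusted p below the threshold of 0.05.

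**Figure D5:**
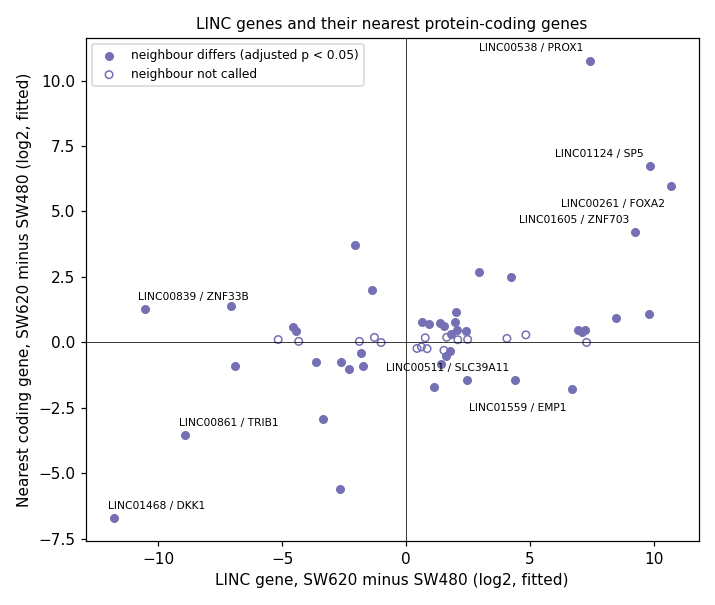
Fitted log2 difference between the lines (SW620 minus SW480) of each LINC gene that differed (horizontal axis) and of its nearest protein-coding gene (vertical axis), 59 pairs, filled where the neighbor was called by edgeR at an adjusted p under 0.05. The pairs LINC01468 and DKK1 and LINC00261 and FOXA2 sit in opposite corners, and LINC01559 and EMP1 lies below 0 on the right. Horizontal positions of LINC genes at 0 in 1 line depend on the prior count and are no bound.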

How the data were processed

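The authors deposited raw read counts per gene symbol for the 4 libraries, without normalization. The submitters' processing notes name Bowtie 0.12.2 and hg18, with no role given. The counting program, annotation and use of strand were not given in the sources used here. Counts of genes with at least 10 in at least 2 libraries were scaled by TMM and fitted with the edgeR 4.0.16 quasi-likelihood test in R 4.3.3, with cell line and treatment as terms, two-sided. DESeq2 1.42.0 was an alternative. The cell line pairs the libraries: across genes, the SW480 libraries' deviations from their condition means correlated at 0.961. Within-line log2 values used a prior count of 2. Each SE is the size of the fitted log2 value divided by the square root of the F of its edgeR test. It is therefore not a measure of precision separate from that test. The fit was tested on simulated data. Named genes were all hosts, MALAT1, NEAT1, and of the LINC genes those called with knockdown, those under the 0.05 limit before adjustment and alike in direction in both lines (at most 8 each way), those with the 8 largest called line differences each way, and the 8 highest by mean CPM. Any other gene given with values, LINC01559 included, was named after its values were seen. The members and lists were chosen with earlier results of these data known. Lengths came from GENCODE 29. Nothing states that libraries came from separate cultures, and each line and condition had 1 library. The p-values therefore rest on how far the 4 libraries depart from the fit, shared across genes, and not on a spread between replicates.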

Additional observations from a re-analysis of the deposited data

Results flagged for a closer look

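In 4 of the members the knockdown and control libraries differed in opposite directions in the 2 lines, with each difference beyond its counting interval. They were picked by this rule, and the share of all genes that met it was not counted. Such an interval covers counting error only. The difference between the lines was not tested, since 1 library per line and condition leaves no residual degree of freedom for it. LINC00342 had a log2 value of 0.55 in SW480 and -0.60 in SW620. LINC00657 (NORAD) had 0.36 in SW480 and -0.17 in SW620. SNHG16 had -0.14 in SW480 and 0.41 in SW620, and SNHG7 had -0.37 and 0.23. None of the 4 was called over both lines by edgeR.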

How the results depend on the processing

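The member called with knockdown numbered 1 in the paired model with the cell line as replicate block. It numbered 0 without that block, 0 with at least 50 counts in 2 libraries, a minimum LINC00704 does not reach, and 0 with the DESeq2 Wald test, which gave no adjusted p for 139 members. Between the lines, 101 members became 44 with the 50-count minimum, which left 72 members, and 50 with the Wald test. The shares of all genes called in these settings were not counted. Hosts fell from 15 to 5 with the Wald test, LINC genes from 84 to 32 and 43, genes higher in SW620 from 62 to 29 and 32, and those higher in SW480 from 39 to 15 and 18. The host median with knockdown was -0.0145, 0.0266 with the Wald test, and -0.0044 to 0.0296 leaving out 1 pair. The host median between lines was 0.57, and 0.46 to 0.55 leaving out 1 pair. The LINC median between lines was 0.17, and ranged from -0.020 without the control pair to 0.40 without the knockdown pair. LINC00704 had a log2 value of 0.67 without the SW620 pair. DESeq2's size factors, no filter, thinning to 5530129 counts and leaving out the treatment term moved no count of adjusted calls by over 1.5 times. Before adjustment, the 7 members higher and 0 lower with knockdown became 4 and 1 with no filter, where neither GAS5 nor MALAT1 passed. Among the alternative values of single genes, 25 lost the call and 0 called values changed sign, while some values that were not called did, LINC01559 among them (-0.50 without the SW620 pair). Levels near 1 CPM rest on few counts, and 1 library per line and condition limits every within-line value.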

Other observations

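Of 33 other named long noncoding RNAs that passed the minimum, 3 were called with knockdown by edgeR, against 1.66% of all genes, and the study listed all 3 from these libraries. The list was chosen with earlier results of these data known, so neither these calls nor those between the lines are read as an excess. UCA1 had 1290 and 554 counts in SW480 control and knockdown cells and 1 and 1 in SW620, and fell by 0.69 on the log2 scale (adjusted p = 0.0110). THRIL had 44.2 and 31.2 CPM in SW480 and 42.7 and 30.2 CPM in SW620, with both knockdown libraries below both controls, and fell by 0.50 (adjusted p = 0.0417). MIAT had 4 and 6 counts in SW480 and 58 and 324 in SW620, and rose by 1.17 (adjusted p = 0.0218). UCA1 was thus measured almost wholly in SW480 and MIAT mostly in SW620. The median log2 change over the 33 was 0.028, where that of all genes was 0.0075. Between the lines 18 were higher in SW620 and 8 in SW480, where 32.3% and 31.3% of all genes were.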
